A study of Mus musculus with 16 samples.

Results

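Voltage-gated sodium and calcium channel genes were taken from the gene count table as every row whose symbol is Scn, a number and a or b, or Cacna, Cacnb or Cacng followed by a number. This gave 39 of 23284 gene symbols, 19 for pore-forming alpha subunits and 20 for auxiliary subunits. They were measured in lumbar spinal cord of mice 150 days old, in 4 groups of 4 animals. The group cWT carried the Atg7 cWT genotype alone, cKO carried Atg7 cKO alone, cWT_SOD1 carried Atg7 cWT with SOD1G93A, and cKO_SOD1 carried Atg7 cKO with SOD1G93A. Atg7 encodes an enzyme that autophagosome formation requires, cKO is read here as conditional knockout and cWT as its wild-type counterpart, and SOD1G93A is a mutant human transgene that models amyotrophic lateral sclerosis. The series title places the autophagy inhibition in motor neurons, and the labels used here name no Cre line. The gene symbol Scn2a1, an older name of a brain sodium channel pore gene, ends in a digit and so falls outside the rule; it is given below with the channel partners.

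Voltage-gated sodium channels open on depolarisation and carry the rising phase of the action potential, and voltage-gated calcium channels convert depolarisation into calcium entry that releases transmitter, shapes firing and reaches the nucleus. Each channel is built on a single large alpha subunit that forms the pore, while sodium beta subunits and calcium alpha2-delta and beta subunits set its gating and its number at the membrane. The gamma family is named after a subunit of the muscle calcium channel, but several of its members are known mainly as auxiliary proteins of AMPA-type glutamate receptors. In spinal cord, motor neurons and interneurons use these channels at the axon initial segment, at nodes of Ranvier, in dendrites and in presynaptic terminals.

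Library totals ran from 14989026 to 20892530 counts, and 15426 genes, 33 of the 39 channel genes among them, had enough counts for testing. Levels within a gene are given as CPM (counts divided by the TMM-scaled library total) and levels between genes as FPKM, which also divides by transcript length. Atg7 itself was not called between the genotypes in whole cord. It had 35.1, 29.7, 29.9 and 31.02 CPM in cWT and 28.3, 28.8, 28.4 and 26.4 CPM in cKO, which did not overlap but did not pass the test (log2 fold change -0.17, adjusted p = 0.9995). With the transgene it had 30.3, 23.1, 22.1 and 20.8 CPM in cWT_SOD1 and 29.4, 20.4, 29.3 and 29.6 CPM in cKO_SOD1. There the difference ran the other way, higher in cKO_SOD1, and did not pass either (log2 fold change 0.17, adjusted p = 0.220). Atg7 was lower in cWT_SOD1 than in cWT (log2 fold change -0.38, adjusted p = 0.00839). The genotypes below are therefore those of the labels, and the Atg7 counts of whole cord do not check them. Neuronal markers were abundant in every library: the summed level of 15 pan-neuronal genes ran from 14613 to 15298 CPM in cWT. That sum was 4840 to 7226 CPM in cWT_SOD1, 13649 to 14321 CPM in cKO and 9795 to 10658 CPM in cKO_SOD1. Since whole tissue was sequenced, fewer neurons and less RNA per neuron cannot be told apart in any value below.

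Several members lie side by side in the genome (mm9, from the deposited loci). Scn3a, Scn1a, Scn9a and Scn7a, all pore genes, share chromosome 2 from 65295175 to 66622967. The beta subunit genes Scn2b and Scn4b are neighbours at chr9:44925959-44938153 and chr9:44947125-44962144, and Scn8a stands alone at chr15:100701114-100876360. RefSeq start sites (GRCm38.p6, a later build) were matched for 29 of the 39 members, with 39 promoter windows in all. The windows below, upstream of a start site and free of the gene's annotated exons, are shown for the pore genes with the largest declines in cWT_SOD1 (Scn8a and Scn1a), for Scn9a, the neighbour of Scn1a that was not called, and for Cacna2d3, the single member called in cKO_SOD1. The Scn1a window is cut by 3 exonic bases and lies on chromosome 2 at 66440841 to 66441087, where an exon of Gm13629 overlaps it. The others lie at chr15:100870395-100870644 (plus strand), chr2:66634963-66635212 (minus strand) and chr14:29721865-29722114 (minus strand). The windows of Scn4b and Cacng2 are not printed because most or all of each lies in annotated exon. Letters run 5′ to 3′ on the gene's strand, with the motifs found on either strand (spelled out after the windows) in capitals.
Scn8a: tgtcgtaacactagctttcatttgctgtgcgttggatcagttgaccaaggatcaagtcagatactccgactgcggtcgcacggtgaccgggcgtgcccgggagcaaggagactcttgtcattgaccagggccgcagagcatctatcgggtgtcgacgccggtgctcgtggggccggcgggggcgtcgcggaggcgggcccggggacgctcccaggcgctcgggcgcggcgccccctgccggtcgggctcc
Scn1a: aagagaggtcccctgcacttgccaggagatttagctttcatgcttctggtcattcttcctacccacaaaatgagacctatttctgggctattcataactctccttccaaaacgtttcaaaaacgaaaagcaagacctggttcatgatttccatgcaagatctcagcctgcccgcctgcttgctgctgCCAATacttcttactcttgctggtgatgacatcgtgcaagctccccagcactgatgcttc
Scn9a: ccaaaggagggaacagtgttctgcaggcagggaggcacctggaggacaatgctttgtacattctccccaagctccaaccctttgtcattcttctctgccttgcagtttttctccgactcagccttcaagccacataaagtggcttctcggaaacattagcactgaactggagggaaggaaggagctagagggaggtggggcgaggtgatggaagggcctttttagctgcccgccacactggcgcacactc
Cacna2d3: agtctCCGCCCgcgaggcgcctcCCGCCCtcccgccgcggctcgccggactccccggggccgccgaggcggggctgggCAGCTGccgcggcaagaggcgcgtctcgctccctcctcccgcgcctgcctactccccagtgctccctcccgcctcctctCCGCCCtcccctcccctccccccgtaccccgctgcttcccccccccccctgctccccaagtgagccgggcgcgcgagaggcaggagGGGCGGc

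The 4 windows differed in composition. G and C made up 68% of the Scn8a window, 80% of the Cacna2d3 window, 47.4% of the Scn1a window and 54.4% of the Scn9a window, with 30, 30, 4 and 5 CG dinucleotides. Composition also differed between start sites of 1 gene: a second exon-free Scn8a window, at chr15:100936021-100936270, had 53.2% G and C and 9 CG dinucleotides. No searched motif was found in the Scn8a and Scn9a windows. Across whole windows of 250 bases, the median GC content was 56.8% over the 39 member windows and 52.4% over 32851 mouse windows. GGGCGG, the GC box, was found for 15 of 29 members and in 32.7% of all windows. CCAAT was found for 10 members (33.8% of all windows), the E-box CAGCTG for 10 (13.0%) and TATAAA for 1 (12.4%). The cyclic AMP response element TGACGTCA was found for 0 members (1.55% of all windows), and the core of RE1, the element bound by the neuronal gene repressor REST, was also found for 0 (0.0578%). All motifs were searched on both strands, and a member with several windows had several chances to match. Counted by window, as in the shares of all windows, the GC box was in 15 of the 39 member windows. CCAAT was in 10, CAGCTG in 11 and TATAAA in 1. Over whole windows, Scn4b and Scn1a, of the 4 genes that fell most, held CCAAT and Cacng2 held CAGCTG, so no searched motif was found in all 4. The matches of Scn4b and Cacng2 lay outside the exon-free part of their windows.

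Per transcript length, some auxiliary subunit genes stood above every pore. Scn4b, a beta subunit known for its part in resurgent sodium current, had 179 ± 12.6 FPKM in cWT (SD, n = 4), and Cacng7, a gamma member that regulates AMPA receptors, had 107 ± 1.75 FPKM. The ranges of both genes over the cWT libraries did not overlap. The most abundant pores were Scn1a (76.0 ± 1.39 FPKM) and Scn8a (52.7 ± 2.83 FPKM), the principal sodium channels of adult spinal neurons, which also kept apart. Among calcium pores Cacna1a, the P/Q-type channel of presynaptic terminals, was highest at 17.6 ± 1.97 FPKM, its range overlapping that of the beta subunit Cacnb1, 15.8 to 20.9 FPKM.

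The middle of the order was crowded. Cacnb4, Cacng2 and Cacna2d3, at 31.5, 30.9 and 30.6 FPKM, had overlapping ranges in cWT. So did each neighbouring pair in the run of Cacng4, Cacna2d1, Cacng8, Cacnb2 and Cacnb3, between 12.5 and 14.5 FPKM. At the low end, Scn7a, a sodium-level sensor rather than a voltage-gated pore, had 1.51 ± 0.149 FPKM, and Scn9a, a pore best known from sensory neurons, had 0.926 ± 0.0824 FPKM. Cacna2d4, best known from retina, was the lowest of the tested genes other than Cacna1s, at 0.287 ± 0.0896 FPKM. The deposited tables mark the FPKM estimate of Cacna1g as failed in 3 libraries, 1 in cKO and 2 in cKO_SOD1; cWT values were not affected.

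**Figure D1:**
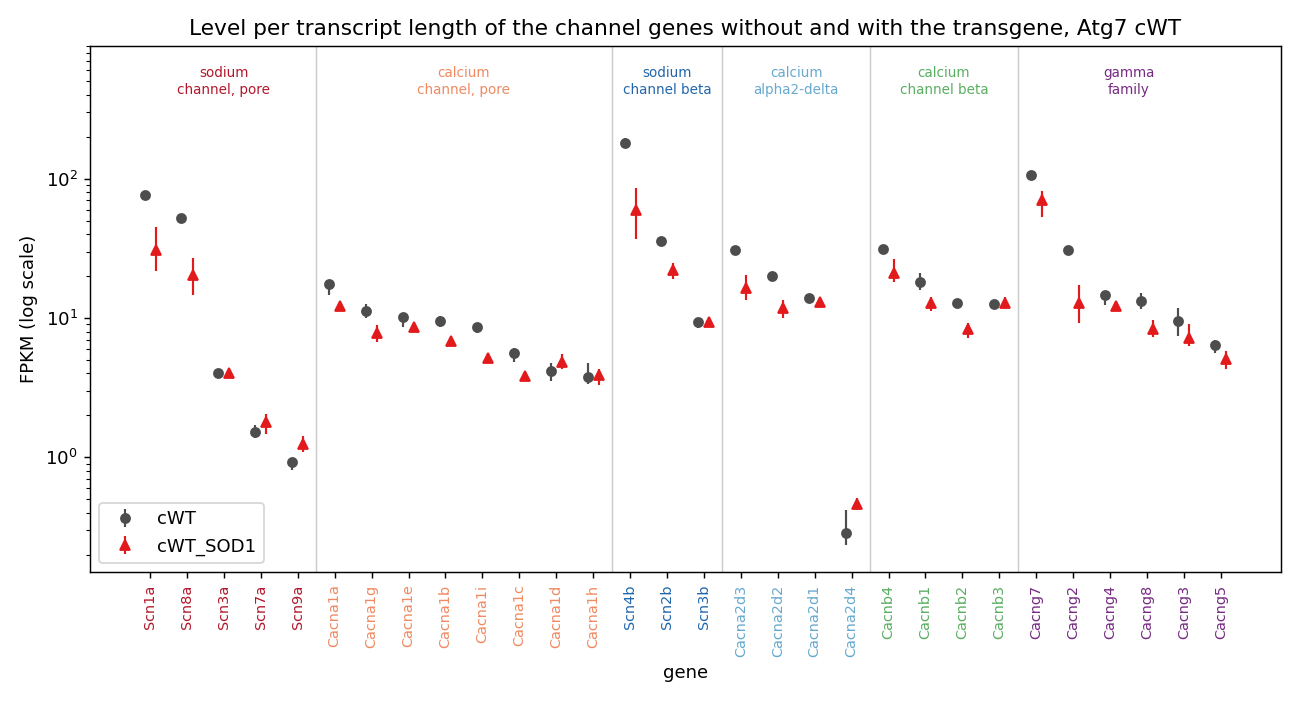
FPKM on a log axis for tested channel genes in cWT and cWT_SOD1 (Cacna1s is not drawn); points are group means and bars run from the lowest to the highest of 4 libraries. Scn4b and Cacng7 lead the genes drawn in cWT, and the cWT_SOD1 points of Scn4b, Scn1a, Scn8a and Cacng2 fall furthest below their cWT points.

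Channels of muscle and of nociceptors were near the limit of detection. Over all 16 libraries together, Scn4a, the skeletal muscle pore, had 33 counts, and Scn10a and Scn11a, pores of nociceptive sensory neurons, had 16 and 50. Cacna1f, a retinal L-type pore, had 101, and the muscle gamma subunits Cacng1 and Cacng6 had 23 and 17. These 6 genes were not tested. Scn10a had 8 counts over the cWT libraries and 0 over the cWT_SOD1 libraries, where a count of 0 allows up to 3 counts or 0.0456 CPM. Cacna1s, the skeletal muscle L-type pore, had 9, 9, 64 and 20 counts over cWT, cKO, cWT_SOD1 and cKO_SOD1. It passed the filter on low counts through cWT_SOD1 alone, so its call is a description; the ratio of cWT_SOD1 to cWT was 8.02, with a 95% counting interval from 3.97 to 18.3. From a list of 8 skeletal muscle genes 4 could be tested. Of these, 2 were lower in cWT_SOD1 than in cWT and 0 higher (33.1% and 33.2% of all genes tested). The lower ones were Pvalb, which interneurons also express, and Actn3 (1.34 ± 0.224 CPM in cWT, 0.707 ± 0.0776 CPM in cWT_SOD1; SD, n = 4). The summed level, most of it Pvalb, was 80.2 to 106 CPM in cWT and 34.8 to 68.4 CPM in cWT_SOD1, and Ckm and Myh4 averaged at most 0.301 and 0.0537 CPM in any group.

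The transgene with Atg7 cWT was accompanied by lower levels of most channel genes. In cWT_SOD1 against cWT, 23 of the 33 tested members fell and 2 were higher at an adjusted p under 0.05. The 2 higher ones were Cacna2d4 and Cacna1s, and the call of Cacna1s is a description only, as given above. Among all genes tested, 66.3% were called in this comparison, 33.1% lower and 33.2% higher, and the 23 of 33 members that fell are to be read against those 33.1%. The median log2 fold change was -0.55 over the 33 members and 0.01 over all genes tested. For 23 members the groups did not overlap in CPM, against 56.6% of all genes. The largest declines were those of 3 sodium channel genes and 1 gamma gene, between 2.55-fold and 3.09-fold.

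Scn4b had the largest decline. Its level was 837, 713, 725 and 768 CPM in the 4 cWT libraries and 344, 181, 154 and 305 CPM in those of cWT_SOD1. The groups were far apart, and within cWT_SOD1 replicates 1 and 4 were higher than replicates 2 and 3. Scn4b was thus 3.09-fold lower (log2 fold change -1.63, SE 0.18, edgeR adjusted p = 3.34e-07). Its neighbour Scn2b fell 1.67-fold. The beta gene Scn3b, which is prominent in developing neurons, kept overlapping levels, 34.7 to 40.9 CPM in cWT and 34.9 to 41.0 CPM in cWT_SOD1, and was not called (log2 fold change -0.04, adjusted p = 0.657).

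Among the members, sodium pore genes divided between Scn8a and Scn1a, which fell, and the member genes beside Scn1a, which were not called. The pore gene Scn2a1, which the rule leaves out, fell by less, from 127 to 98.5 CPM on average. Scn8a, the pore of nodes of Ranvier and of the axon initial segment, had 621, 606, 599 and 556 CPM in cWT and 289, 184, 161 and 251 CPM in cWT_SOD1. It fell 2.69-fold (log2 fold change -1.43, SE 0.13, adjusted p = 2.78e-08). Scn1a, a pore prominent in inhibitory interneurons and in motor neurons, had 637, 612, 630 and 616 CPM in cWT. In cWT_SOD1 it had 346, 194, 178 and 260 CPM, 2.55-fold lower (SE 0.14 on the log2 scale, adjusted p = 1.56e-07). In both genes replicates 1 and 4 of cWT_SOD1 again stood above replicates 2 and 3, without reaching the cWT libraries.

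Of the members, the 3 pore genes beside Scn1a on chromosome 2 were not called. Scn3a, the pore of the embryonic nervous system, had 32.7 to 37.5 CPM in cWT and 33.6 to 37.1 CPM in cWT_SOD1 (log2 fold change 0.04). Scn9a had a log2 fold change of 0.11 and Scn7a of 0.21, with adjusted p of 0.419 and 0.120. Scn7a passed the threshold once cWT_SOD1 replicate 1 was left out (log2 fold change 0.32, adjusted p = 0.0140). A p above the threshold does not show that these 3 levels were equal; their SE ran from 0.06 to 0.12.

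Calcium pore genes fell by less than Scn8a and Scn1a. Of 9 tested, 6 were lower, against 33.1% of all genes tested, and 2 were not called. Cacna1s was higher, and its call is a description only, as given above. Each presynaptic pore was lower: Cacna1a fell 1.46-fold, from 147, 149, 145 and 118 CPM to 96.8, 95.4, 91.0 and 100 CPM. Its cWT replicate 4 lay well below the other 3 cWT libraries and still above every cWT_SOD1 library. The N-type pore Cacna1b fell 1.44-fold and the R-type pore Cacna1e fell 1.22-fold. Among T-type pores, which open near the resting potential, Cacna1i fell 1.72-fold and Cacna1g 1.49-fold, whereas Cacna1h had a log2 fold change of 0.00. The L-type pores, which drive plateau potentials and signalling to the nucleus, also split: Cacna1c fell 1.49-fold. Cacna1d had 41.6, 45.6, 38.2 and 33.5 CPM in cWT and 37.0, 42.3, 48.5 and 41.6 CPM in cWT_SOD1, overlapping and not called (log2 fold change 0.09, adjusted p = 0.392).

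The alpha2-delta subunits, extracellular proteins that carry calcium channels to the membrane and of which the first and second bind gabapentin, went both ways. Cacna2d3 had 113, 112, 114 and 123 CPM in cWT and 72.2, 50.1, 51.3 and 65.6 CPM in cWT_SOD1, 1.93-fold lower (adjusted p = 4.01e-08). Cacna2d2 fell 1.72-fold. Cacna2d1 fell only 1.10-fold, and its adjusted p of 0.00984 became 0.0706 without cWT_SOD1 replicate 2 and 0.0690 when only these 8 libraries were fitted. Cacna2d4 was higher, at 1.59, 1.54, 1.56 and 2.55 CPM in cWT and 3.14, 2.68, 3.12 and 3.12 CPM in cWT_SOD1, or 0.73 higher on the log2 scale (SE 0.17), with an adjusted p of 9.14e-04. It is the least abundant of the 4, its locus overlaps Lrtm2, and its cWT replicate 4 came close to the cWT_SOD1 range.

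Calcium channel beta subunits bind the pore inside the cell, and 3 of 4 fell, against 33.1% of all genes tested. Cacnb2 was 1.57-fold lower and Cacnb1 1.47-fold lower. Cacnb4 went from 250, 239, 264 and 258 CPM to 200, 152, 143 and 154 CPM, 1.55-fold lower, with replicate 1 of cWT_SOD1 nearest to cWT. Cacnb3 kept overlapping levels, 30.4 to 34.5 CPM in cWT and 30.0 to 36.0 CPM in cWT_SOD1 (log2 fold change -0.01).

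All 6 gamma genes that could be tested fell, against 33.1% of all genes tested. Cacng2, or stargazin, which carries AMPA receptors to the synapse, had 93.8, 95.003, 96.4 and 92.0 CPM in cWT and 49.7, 30.3, 26.7 and 41.4 CPM in cWT_SOD1. It was 2.55-fold lower (SE 0.12 on the log2 scale, adjusted p = 4.93e-08), and its cWT libraries lay within a narrow band. Cacng7 fell 1.59-fold, from 82.7, 80.4, 79.7 and 80.8 CPM to 58.5, 50.3, 39.7 and 55.9 CPM. Cacng8 fell 1.56-fold, Cacng3 1.41-fold and Cacng4 1.23-fold, and Cacng5 had a log2 fold change of -0.38 (adjusted p = 0.00116), and in Cacng3 and Cacng4 the groups overlapped.

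**Figure D2:**
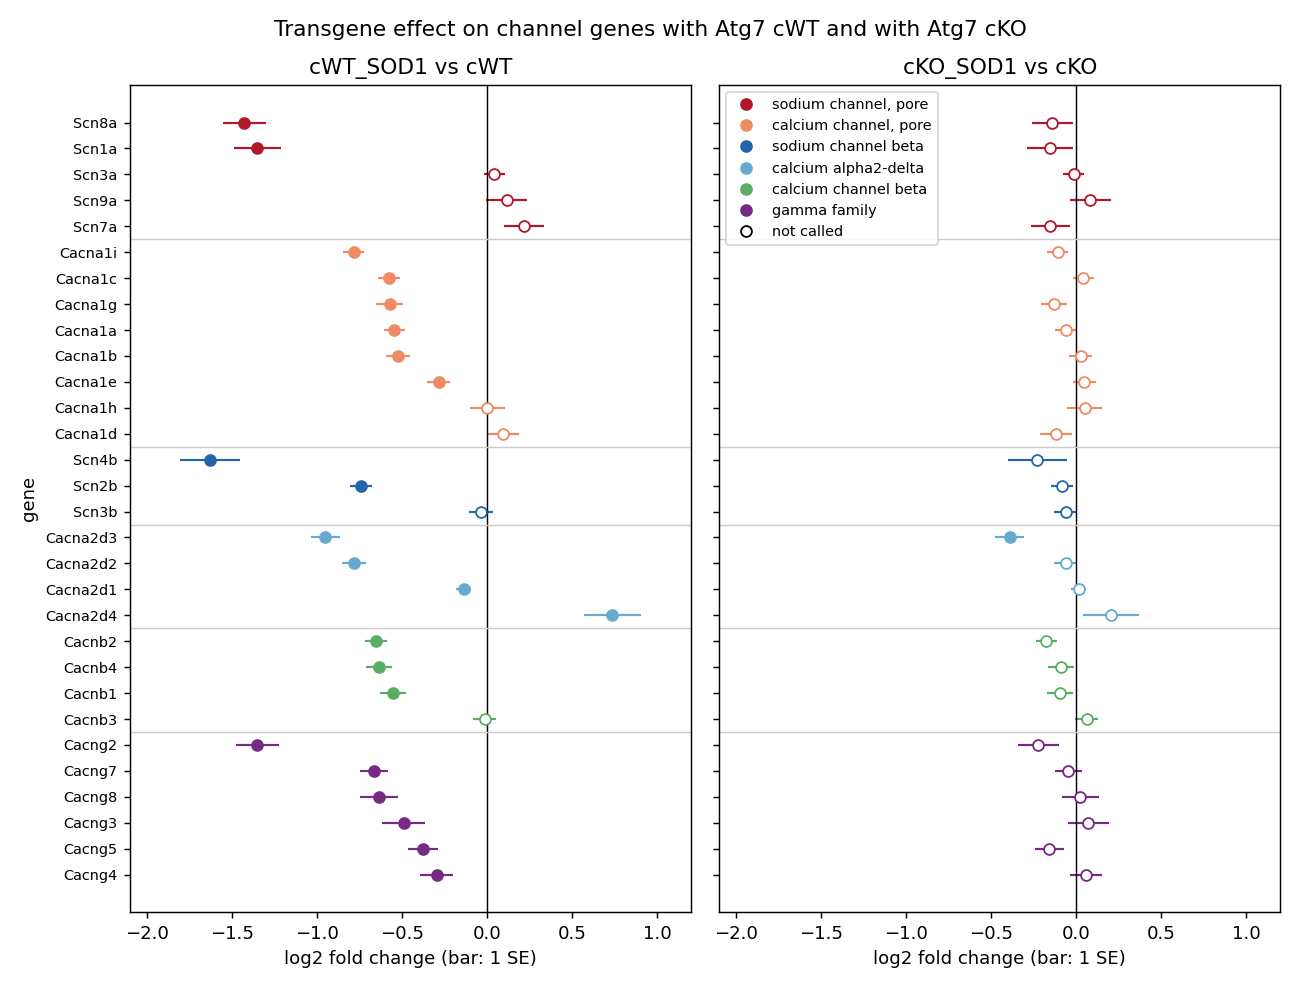
Log2 fold change with 1 SE of tested channel genes for the transgene with Atg7 cWT (left) and in cKO (right), filled where called at an adjusted p under 0.05. Scn4b, Scn8a, Cacng2 and Scn1a lie beyond -1.3 on the left and between -0.23 and -0.14 on the right, where Cacna2d3 alone is filled; Cacna1s, with few counts, is not drawn.

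Transcripts of related channels, channel-binding proteins and scaffolds were also lower for the most part. The counts below stand beside 33.1% called lower and 33.2% called higher among all genes tested. The list of 10 sodium channel partners holds the pore gene Scn2a1, the homologous factors Fgf11 to Fgf14, the ubiquitin ligase gene Nedd4l, and Nalcn, Unc80, Unc79 and Fam155a, which encode the separate sodium leak channel and its subunits. Of these, 9 were lower in cWT_SOD1 and 0 higher, with a median of -0.76, and Nedd4l was not called. Fgf11 and Fgf12, whose intracellular proteins bind the tail of sodium channels, fell most, Fgf11 3.42-fold from 15.3 ± 1.10 to 4.48 ± 1.04 CPM and Fgf12 2.29-fold. Scn2a1, the pore gene outside the rule, fell 1.29-fold, from 127 ± 3.92 to 98.5 ± 4.12 CPM (SD, n = 4). Of 14 genes of the axon initial segment and node, 10 were lower and 2 higher. Epb4.1l3, a paranodal scaffold, fell 2.27-fold and the potassium channel Kcna2 2.24-fold, while the adhesion molecules Nrcam and Nfasc, which glia also express, were 1.78-fold and 1.38-fold higher. Of 13 calcium channel partners that could be tested, 8 were lower and 2 higher. The active-zone genes Rims1 and Unc13a fell 2.17-fold and 2.09-fold, whereas Rrad and Gem, small GTPases known to inhibit calcium channels, were 6.37-fold and 1.34-fold higher.

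Markers of cell types moved in the same comparison, in which 33.1% of all genes tested were called lower and 33.2% higher. Of the 15 pan-neuronal genes 14 were lower (median -0.94), of 10 motor neuron genes all 10 (median -1.74, summed level 502 to 658 CPM in cWT and 147 to 201 CPM in cWT_SOD1), and of 12 spinal interneuron genes 10 (median -0.57, 1470 to 1578 CPM and 662 to 955 CPM). All 6 astrocyte genes and all 8 microglial genes were higher, the latter with summed levels of 364 to 409 CPM and 1914 to 2909 CPM. For precursors of oligodendrocytes 5 of 7 genes were higher, and for oligodendrocytes 1 of 7 was higher and 4 lower. The median of the channel genes, -0.55, lay near that of the interneuron list and above those of the pan-neuronal and motor neuron lists. The part of cell composition in the channel values was not tested.

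In the libraries labelled cKO, the channel genes differed little with the transgene. In cKO_SOD1 against cKO, 1 of 33 members was called, against 7.28% of all genes tested (2.48% lower, 4.8% higher). That member was Cacna2d3, with 114, 112, 115 and 120 CPM in cKO and 86.41, 87.45, 87.95 and 90.01 CPM in cKO_SOD1. The groups did not overlap, and it was 1.31-fold lower (log2 fold change -0.39, SE 0.08, adjusted p = 0.00730). The median log2 fold change was -0.06 over the 33 members and 0.00 over all genes tested. For 11 members the groups did not overlap, against 20.9% of all genes.

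The genes that had fallen most in cWT_SOD1 had small differences here. Scn4b had 737, 754, 693 and 711 CPM in cKO and 598, 625, 618 and 629 CPM in cKO_SOD1, a log2 fold change of -0.23 with an adjusted p of 0.475. Scn8a had 584, 595, 555 and 581 CPM in cKO and 533, 533, 507 and 529 CPM in cKO_SOD1 (log2 fold change -0.14, adjusted p = 0.551). Scn1a had 610, 625, 611 and 617 CPM in cKO and 552, 552, 555 and 551 CPM in cKO_SOD1 (log2 fold change -0.16, adjusted p = 0.545). In each gene all 4 cKO_SOD1 libraries lay below all 4 cKO libraries, as in Cacng2, with 87.0 to 89.1 CPM in cKO and 72.9 to 78.6 CPM in cKO_SOD1. The fit shares its estimate of spread with cWT_SOD1, the most variable group. When only the 8 cKO and cKO_SOD1 libraries were fitted, 7 members were called, all lower: Cacna2d3, Scn4b (adjusted p = 9.02e-04), Cacng2 (8.91e-04), Scn1a (0.00262), Scn8a (0.0115), Cacnb2 (0.0173) and Cacna1g (0.0419). The sizes of their differences lay between -0.23 and -0.13 on the log2 scale, Cacna2d3 aside.

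Among pore genes 0 of 15 were called in this comparison by edgeR, 0 at an unadjusted p under 0.05, and 0 by DESeq2 and by limma, while the fit of 8 libraries called 3. Among auxiliary genes edgeR and DESeq2 called 1 of 18 and limma 3. Over all genes tested, edgeR called 2.48% lower and 4.8% higher in this comparison. The list of sodium channel partners had 1 member lower, Fgf11 (log2 fold change -0.50, adjusted p = 0.00948). The axon initial segment list had 0 called by edgeR and 3 at an unadjusted p under 0.05, with 0.0524 as its smallest adjusted p, for Epb4.1l3 at -0.32. Gem was lower here (log2 fold change -0.45, adjusted p = 0.0229), opposite to its direction with Atg7 cWT. All 10 motor neuron genes fell in cKO_SOD1 as well, with a median of -1.21 and summed levels of 443 to 511 CPM in cKO and 176 to 232 CPM in cKO_SOD1. By contrast edgeR called 0 of 12 interneuron genes, with 1 at an unadjusted p under 0.05, at 1516 to 1615 CPM and 1383 to 1498 CPM. Of 8 microglial genes 6 were higher (356 to 481 CPM in cKO, 696 to 757 CPM in cKO_SOD1), and 7 of the 15 pan-neuronal genes were lower.

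**Figure D3:**
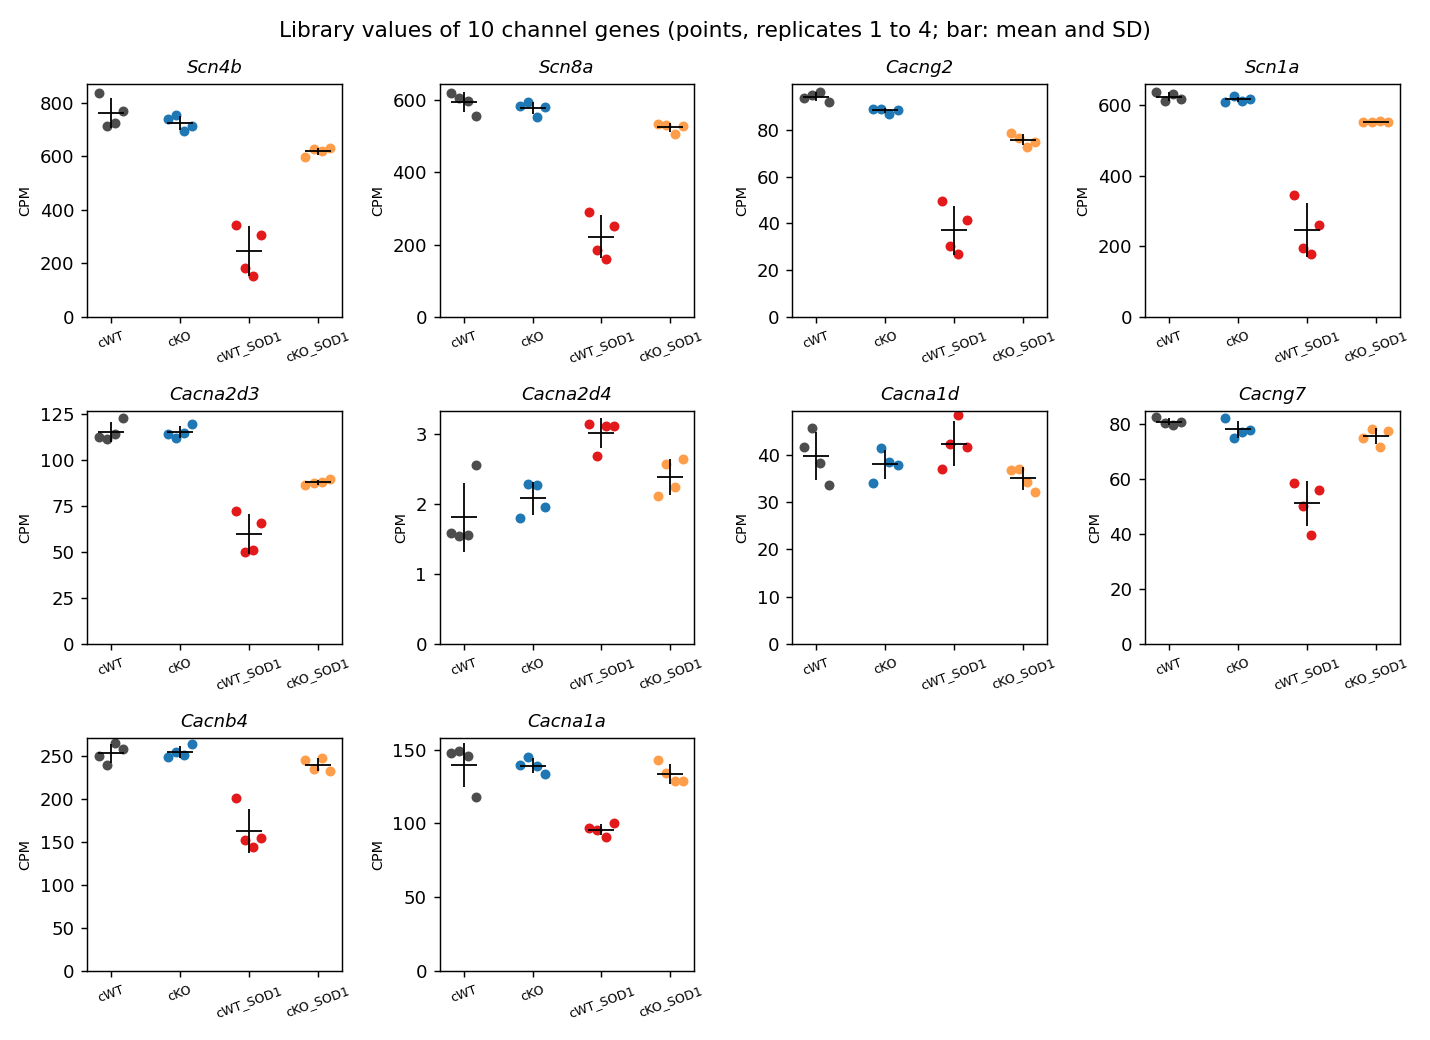
CPM of 10 channel genes in each library of the 4 groups, as points, with the group mean and SD as bars. The cWT_SOD1 libraries of Scn4b, Scn8a, Scn1a and Cacng2 lie below all others and spread widely, with replicates 1 and 4 on top, whereas the cKO_SOD1 libraries lie close together just under cKO.

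Without the transgene, no difference in a channel gene between the libraries labelled cKO and cWT passed the test. In cKO against cWT, edgeR, DESeq2 and limma each called 0 of 33 members, and 4 of all genes tested (0.0259%) were called by edgeR, 0.00648% higher and 0.0194% lower. At an unadjusted p under 0.05 there were 2 members, Scn3a (log2 fold change 0.17) and Cacna2d1 (0.11), both higher in cKO. The groups did not overlap for 1 member, Cacng2 (3.48% of all genes), with 92.0 to 96.4 CPM in cWT and 87.0 to 89.1 CPM in cKO. Over the members the log2 fold changes ran from -0.10 to 0.20 with a median of 0.00.

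Between the transgenic groups, most channel genes were higher in the libraries labelled cKO_SOD1, in which Atg7 itself was not lower. In cKO_SOD1 against cWT_SOD1, 24 of 33 members were higher and 2 were lower, while 58.2% of all genes were called, 29.1% in each direction. The groups did not overlap for 24 members, against 49.1% of all genes. Scn4b was 2.51-fold higher in cKO_SOD1 (log2 fold change 1.33, adjusted p = 5.58e-06), Scn8a 2.37-fold, Scn1a 2.26-fold and Cacng2 2.05-fold. Cacna2d3 and Cacnb4 were each 1.47-fold higher, Cacng7 1.48-fold and Cacna1a 1.39-fold. Of the lower genes, Cacna1d had 36.9, 37.0, 34.2 and 32.0 CPM in cKO_SOD1 and overlapped cWT_SOD1. Its log2 fold change was -0.27 (adjusted p = 0.0178), and the adjusted p was 0.0790 without cWT_SOD1 replicate 3 and 0.0621 without cKO_SOD1 replicate 4. The other, Cacna1s, had few counts and its call is a description only, as above. The calls of Cacng4 and Cacng5, both higher, were also lost when some single libraries were left out. This comparison and the transgene comparison with Atg7 cWT share the cWT_SOD1 libraries. Cell type markers also differed between the transgenic groups, beside 29.1% of all genes in each direction. In cKO_SOD1, 14 of 15 pan-neuronal and 9 of 12 spinal interneuron genes were higher, and all 8 microglial and all 6 astrocyte genes were lower. Of 10 motor neuron genes 2 were higher and 2 lower (median -0.09). The part of cell composition in the channel values was not tested.

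The interaction, the difference between the transgene effect in cKO and that in cWT, was called for 21 of 33 members, all positive, against 45% of all genes (23.2% positive, 21.8% negative). A positive value means that the change was less negative in cKO. Scn4b had the largest value, 1.40 on the log2 scale (SE 0.25, adjusted p = 2.06e-04), followed by Scn8a at 1.29, Scn1a at 1.195 and Cacng2 at 1.13. Cacng7 had 0.62, Cacna2d3 0.56, Cacnb4 0.55 and Cacna1a 0.49. Cacna2d3 is the member that was called in both transgene comparisons, and its decline was smaller in cKO by this test (adjusted p = 0.00115). The interaction of Cacng4 rested on a narrow margin (adjusted p = 0.0407) and was lost under several single omissions. The 12 members without a called interaction include all 8 that were not called for the transgene with Atg7 cWT. The other 4 are Cacna1s, Cacna2d1, Cacna2d4 and Cacng5, and of these Cacna2d4 passed at an adjusted p of 0.00779 without cWT replicate 4. Cacna2d1, Cacna1s and Scn7a also passed when certain single libraries were left out.

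Pore-forming and auxiliary genes were set side by side in each comparison. In cWT_SOD1 against cWT, 8 of 15 pore genes and 15 of 18 auxiliary genes were lower, with medians of -0.29 and -0.64. Over all genes tested 33.1% were lower, with a median of 0.01. Without Cacna1s the pore median was -0.41. In cKO the medians were -0.01 and -0.07, and for the interaction 0.33 (8 of 15 called) and 0.55 (13 of 18). All these interaction calls were positive, and over all genes tested 45% were called for it, 23.2% positive. The 2 kinds overlapped widely, with pore genes from -1.43 to 2.89 and auxiliary genes from -1.63 to 0.73 in cWT_SOD1 against cWT. The value of 2.89 is that of Cacna1s, and the next highest pore gene was Scn7a at 0.21. The difference between the medians was not tested, because members of a class are not replicates of a condition.

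Within the kinds, the classes of calcium channel genes lay close together, pores included, and the sodium pores lay apart from them. Sodium pores had a median of -0.05 with Atg7 cWT, with 2 of 6 called lower, against 3 of 4 sodium beta genes. The 2 called, Scn8a at -1.43 and Scn1a at -1.35, lay far below that median, which stands near the uncalled pores. Scn2a1, outside the rule, is not in this class. Over all genes tested, 33.1% were called lower, and the counts in brackets below are also of genes called lower. The median with Atg7 cWT was -0.59 for calcium beta subunits (3 of 4), -0.56 for the gamma family (6 of 6), -0.52 for calcium pores (6 of 9) and -0.46 for alpha2-delta subunits (3 of 4). Measured as summed FPKM, both kinds fell together. Pore genes summed to 206 ± 10.4 FPKM in cWT and 112 ± 16.4 FPKM in cWT_SOD1, and auxiliary genes to 806 ± 13.6 and 455 ± 77.1 FPKM (SD, n = 4). Pore genes made up 20.4 ± 0.899% of the family sum in cWT, 20.6 ± 0.392% in cKO, 19.8 ± 0.610% in cWT_SOD1 and 20.7 ± 0.585% in cKO_SOD1, and these ranges overlapped. Abundant genes such as Scn4b, Scn1a and Scn8a weigh heavily in these sums.

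**Figure D4:**
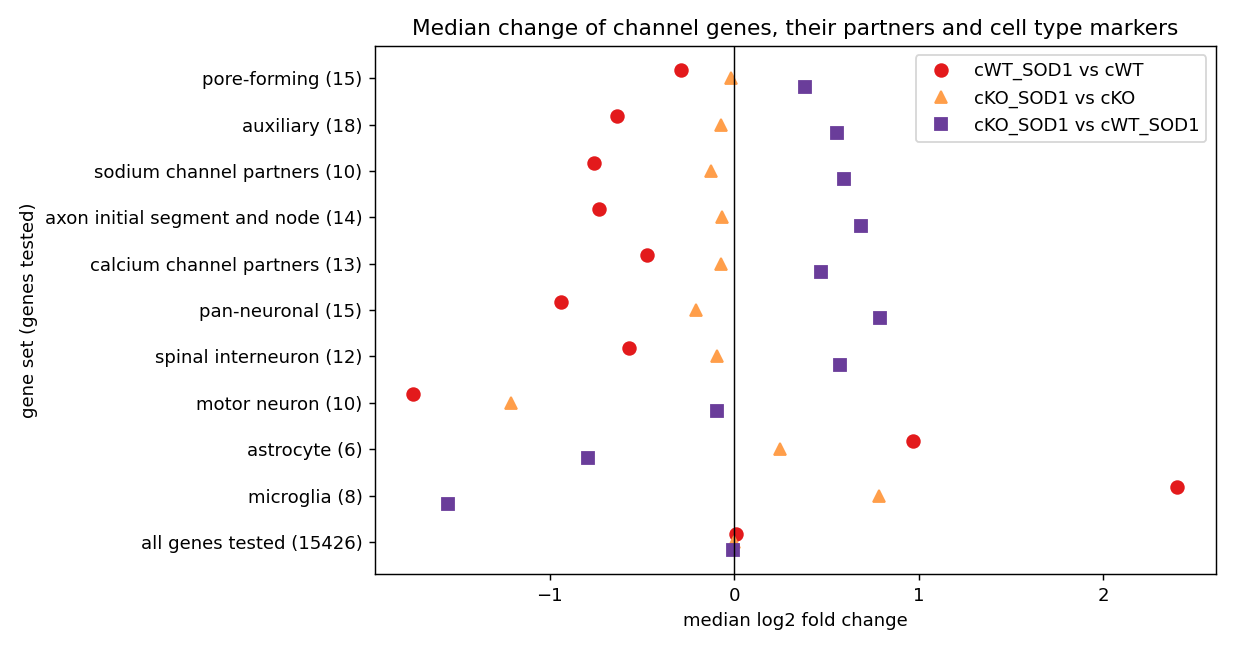
Median log2 fold change, as points on the horizontal axis, of the pore-forming and auxiliary genes, of their partner lists, of 5 cell type marker lists and of all genes tested, in 3 comparisons. Both kinds of channel gene lie below 0 for cWT_SOD1 against cWT (-0.29 and -0.64), near 0 for cKO_SOD1 against cKO (-0.01 and -0.07) and above 0 for cKO_SOD1 against cWT_SOD1 (0.39 and 0.56), while the median of all genes stays near 0. The pore medians include Cacna1s, which passed the filter on low counts through cWT_SOD1 alone. Without it the pore median for cWT_SOD1 against cWT is -0.41.

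The 4 cWT_SOD1 libraries were not alike. All channel genes together made up 4075 to 4308 CPM in cWT, 4067 to 4233 CPM in cKO and 3705 to 3845 CPM in cKO_SOD1. In cWT_SOD1 they made up 2558, 1969, 1862 and 2375 CPM in replicates 1 to 4, the widest spread of the groups and the lowest level. Replicates 1 and 4 had total counts of 15546056 and 14989026, lower than the 17760992 and 17536230 of replicates 2 and 3, and pan-neuronal sums of 7226 and 6633 CPM against 4968 and 4840 CPM; the part of either was not tested. No cWT_SOD1 library reached the range of another group. The spread ran the same way in Scn4b, Scn8a, Scn1a and Cacng2, where replicates 1 and 4 were the higher ones. In Cacna1a the 4 cWT_SOD1 libraries lay closer together, between 91.0 and 100 CPM, with replicates 1 and 4 again the higher ones. In Cacna1e they lay at 110 to 113 CPM.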

How the data were processed

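Polyadenylated RNA of 16 lumbar cords was sequenced from TruSeq libraries. The genome build is mm9, and the tools listed are TopHat2 2.0.4, Cufflinks 2.0.2 and bcl2fastq 1.8.4, per the submitters' processing notes. Neither the counting tool nor strandedness is stated in the labels, and reads of overlapping genes may be shared. These are Lrtm1 in Cacna2d3, Lrtm2 in Cacna2d4, Dcp1a and Chdh in Cacna1d, and Dcp1b and 4931430N09Rik in Cacna1c. Others are Tpsg1 in Cacna1h, Gm13315 in Cacnb2, Gm10684 in Scn2b and Gm13629 in Scn9a. The authors deposited raw counts per gene symbol and FPKM values, identical in their joint and per-library tables. The tests on counts used edgeR 4.0.16 under R 4.3.3 (quasi-likelihood F-test, TMM, filterByExpr, all 16 libraries in 1 fit with a coefficient per group), with Benjamini-Hochberg adjustment over all 15426 genes and a threshold of 0.05. The script was tested on simulated data. FPKM served only to set genes side by side. Folds are 2 to the power of the fitted log2 fold change. Intervals and floors cover counting error only.

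Library values are given for up to 6 called members in each direction for cWT_SOD1 against cWT and up to 4 in every other comparison, by size of change and averaging 1 CPM or more in a group, and for the member with the highest FPKM of each class; values of further members were added after they were seen. Some members' own values are not reported here; counts, medians and sums cover all members. Partner lists give the 2 called genes with the largest changes in each direction. The members, gene lists and tests were chosen with earlier results of these data known. Alternatives were RLE and upper-quartile scaling, no filter, DESeq2 1.42.0, limma 3.58.1 (voom, weighted by group), only the groups compared, a replicate block, sex as covariate, each library left out, and, added after seeing the data, Cacna1s left out. Sex was inferred here from the counts of Xist against Y-linked genes, which gave 2 females and 2 males in each group. Within each group, every pair of libraries differed beyond counting noise (mean chi-square per gene 2.79 to 38.9). Promoter windows are from RefSeq, GRCm38.p6, with exons from GENCODE.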

Additional observations from a re-analysis of the deposited data

Results flagged for a closer look

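Of 40 sets of 4 libraries (10 named genes in 4 groups), 4 held a library whose gap to the nearest other was unusually wide for the range of its group; chance alone marks about 1 set in 20. These were Scn8a in cKO_SOD1 replicate 3, at 507 CPM below the other 3 between 529 and 533 CPM, Cacna1a in cWT replicate 4 at 118 CPM, Cacna2d4 in cWT replicate 4 at 2.55 CPM and Cacna2d4 in cWT_SOD1 replicate 2 at 2.68 CPM. The calls of these genes in cWT_SOD1 against cWT held when that library was left out.

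The transgene effect differed between the Atg7 genotypes, by the interaction term of the edgeR fit, for 8 of the 10 named genes. Scn4b, Scn8a, Scn1a and Cacng2 were named partly for a called interaction, so this count was partly set by the choice of genes. Over all genes tested, 45% had a called interaction. The differences on the log2 scale, cKO minus cWT, were 1.40 for Scn4b, 1.29 for Scn8a, 1.195 for Scn1a, 1.13 for Cacng2, 0.62 for Cacng7, 0.56 for Cacna2d3, 0.55 for Cacnb4 and 0.49 for Cacna1a. In each of these genes all 4 cWT_SOD1 libraries lay below all 4 cWT libraries. Some of them were named for that decline, and these groups did not overlap for 56.6% of all genes.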

How the results depend on the processing

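No result changed direction among called values. The count of called channel genes stayed within 24 to 26 for cWT_SOD1 against cWT (25 as reported), 23 to 27 for cKO_SOD1 against cWT_SOD1 (26 as reported), 20 to 22 for the interaction (21 as reported) and 0 for cKO against cWT. For cKO_SOD1 against cKO the 1 call became 3 with limma weighted by group and 7 with only the groups compared, and stayed 1 when any library was left out. Across single omissions the auxiliary median of the interaction ran from 0.49 to 0.64 (0.55 as reported), highest without cWT_SOD1 replicate 1. The cause of these shifts in counts and medians was not tested. Medians near 0 changed sign under some omissions, the pore median from -0.06 to 0.02 for cKO_SOD1 against cKO and from -0.03 to 0.03 for cKO against cWT, and the auxiliary median from -0.01 to 0.03 for cKO against cWT. The pore median for cWT_SOD1 against cWT was -0.41 with Cacna1s left out (-0.29 as reported). Of the called members, 24 of 25, 1 of 1, 22 of 26 and 20 of 21 were called in every planned setting, in the order cWT_SOD1 against cWT, cKO_SOD1 against cKO, cKO_SOD1 against cWT_SOD1 and the interaction. Over all genes, cKO_SOD1 against cKO had 1123 calls, 2264 with limma, 2480 with only the groups compared and 685 without cKO replicate 2. For cKO against cWT there were 4, 18 by DESeq2, 10 by limma, 9 with only the groups compared, and 2 to 9 with single omissions. Same-numbered libraries of different groups deviated together hardly more than other pairs. Their r ran from -0.25 to 0.31 (median 0.03), against -0.34 to 0.28 (median 0.002) for pairs of other numbers. Of 16 libraries, 6 correlated best with their own number. With the number as a replicate block the counts of called channel genes were 25, 1, 0, 26 and 21, the same as without it. The medians were then -0.28 (pore-forming) and -0.64 (auxiliary) for cWT_SOD1 against cWT and 0.33 and 0.56 for the interaction. Depth limits the 6 untested genes and Cacna1s.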
